A study of Mus musculus with 20 samples.

Results

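The claudins are the strands of the tight junction, and 8 of them were followed here together with occludin (Ocln) and the scaffold protein ZO-1 (Tjp1), in male C57BL/6J mice, over 5 tissues and 4 diets. The 10 genes were taken by symbol from the 21154 genes named on the array, each by the probe of that gene with the highest mean signal. On the high fat diet (HFD), 60% of energy came from fat. Nori extract (HFD+Ex) or porphyran, a polysaccharide of that seaweed (HFD+PP), was added to it at 2% of weight, and in the control diet (CD) fat gave 10% of energy. Mice went on the diets at 5 weeks of age for 13 weeks, and colon, ileum, liver, mesenteric white fat and brown fat were collected. Tissue of the 7 mice of a diet was pooled, so that each tissue and diet is 1 array, 20 in all, and the 5 arrays of a diet come from the same 7 mice.

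Tight junctions seal the space between epithelial cells near their luminal side. Claudins form the strands, and each has its own permeability: claudin-2 and claudin-15 make pores that pass small cations and water, while claudins such as claudin-1, claudin-4 and claudin-8 tighten the seal. Occludin is a further membrane protein of the strands, and ZO-1 links them to actin from the inside. In the gut the set of claudins changes along the length of the tube, which sets how leaky each segment is.

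Levels below are log2 intensity minus the 75th percentile of the array, so that 1 unit is 2-fold and a negative level lies under that percentile. They compare 1 gene between arrays and not 1 gene with another, since each probe has its own brightness. Between 50.7% and 67.9% of spots were well above background, no spot was saturated, and the number of arrays limits the precision. A tissue has 4 pools, 1 per diet, so differences between tissues were tested with limma with diet as a block and Benjamini-Hochberg adjustment over all genes. A diet has 1 array per tissue, so differences between diets have no test, and a gene is called only at 1 log2 or more. In mixed tissue, fewer epithelial cells and less RNA per cell cannot be told apart. The defining markers matched the labels: the median level was between 5.96 and 6.39 for intestinal epithelium genes in colon, between 7.49 and 7.87 for them in ileum, between 8.99 and 9.05 for hepatocyte genes in liver, between 5.81 and 6.25 for adipocyte genes in mesenteric fat and between 10.01 and 10.21 for brown adipocyte genes in brown fat. Mesenteric fat stood apart, since it also held intestinal epithelium and exocrine pancreas RNA at levels that differed between diets, described with its results. By the slide recorded in the file headers, the 4 colon arrays fill a slide of their own, so slide and tissue cannot be told apart in any contrast with colon. The 4 liver arrays lie on 1 slide and the 4 ileum arrays on another, each beside fat arrays, so liver against ileum also crosses slides. Brown fat shares no slide with liver, and mesenteric fat none with ileum.

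**Figure D1:**
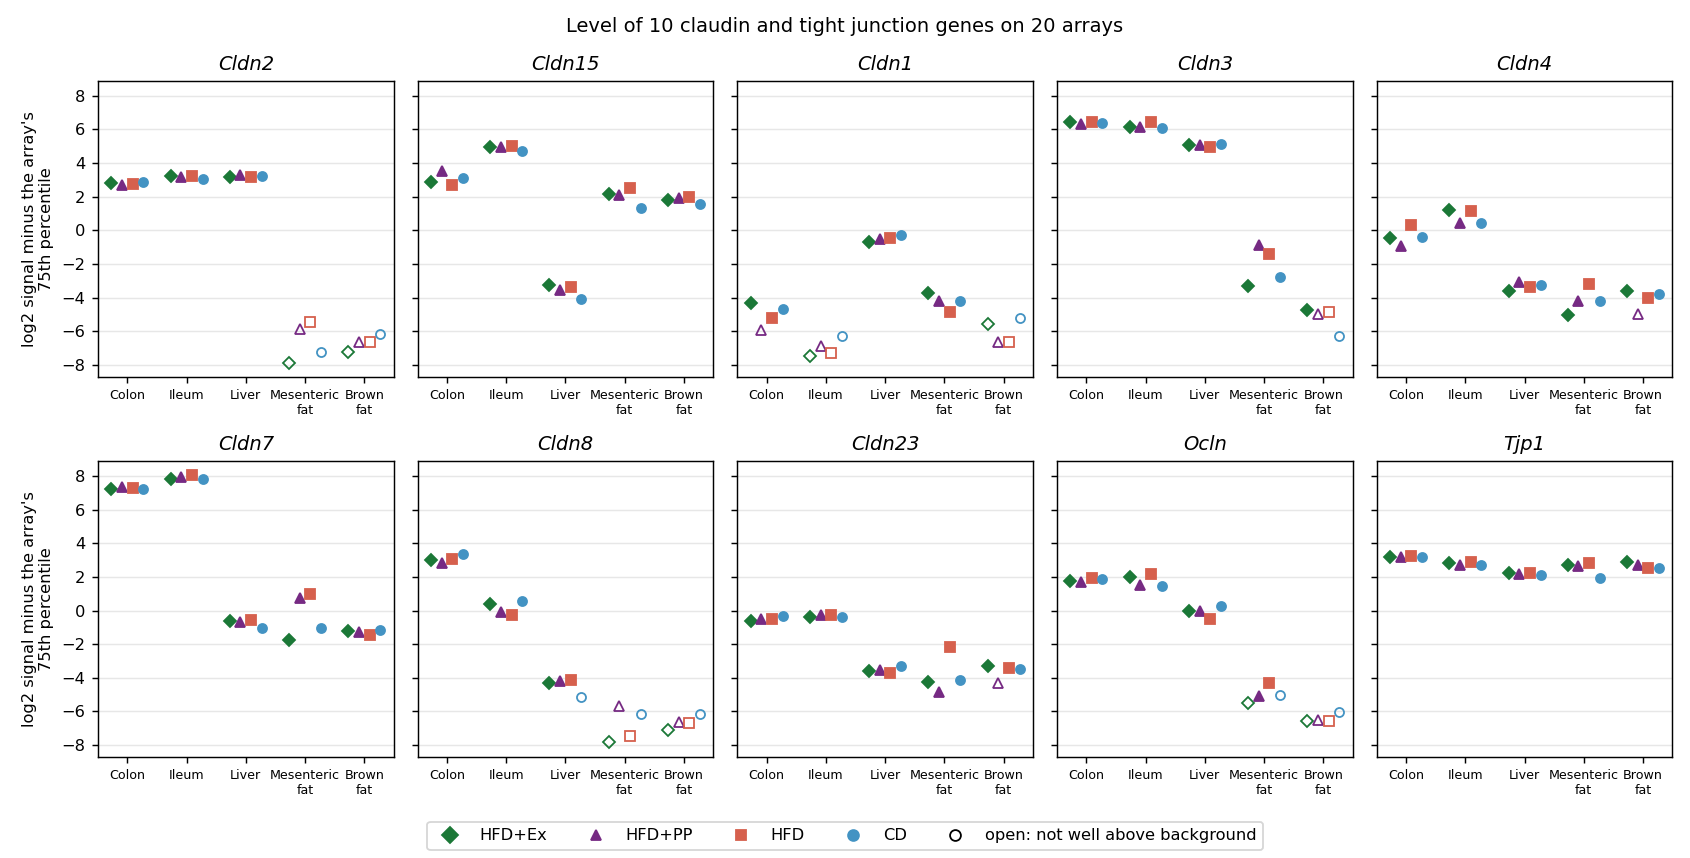
Level of each of the 10 genes on all 20 arrays (y axis, log2 signal minus the 75th percentile of the array), by tissue (x axis) and diet (colour and shape). Open symbols are not well above background. Cldn7 and Cldn3 were far higher in colon and ileum than in fat, Cldn1 was highest in liver, and Tjp1 stayed between 1.93 and 3.23 on every array.

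Of the pore-forming claudins, Cldn2 was present at like levels in liver, ileum and colon, and Cldn15 was highest in ileum. Cldn2 averaged 3.22 in liver, 3.18 ± 0.09 in ileum and 2.78 ± 0.09 in colon (SD, n = 4 pools), and it was not well above background on any of the 8 fat arrays. The step from colon to mesenteric fat was at least 306-fold (adjusted p = 2.51e-12), while liver and ileum differed by 0.04 (adjusted p = 0.920 in the fit of all 20 arrays). Cldn15 averaged 4.91 ± 0.12 in ileum, 3.03 ± 0.37 in colon, 2.02 in mesenteric fat, 1.80 in brown fat and −3.58 in liver. Ileum lay above colon by 1.88 (SE 0.19, adjusted p = 1.03e-06), colon above mesenteric fat by 2.02-fold (adjusted p = 0.000194), and brown fat above liver by 5.38 (adjusted p = 4.81e-13), whereas the fats differed by 0.22 (adjusted p = 0.311). Cldn15 was thus well above background in fat, where Cldn2 was not.

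The promoters of these pore-forming claudins differ in the motifs they hold. They are shown because Cldn15 was well above background in fat and Cldn2 was not. RefSeq (GRCm38.p6) gives windows of 250 bases before to 50 bases after the start for 8 of the 10 genes. Capitals mark matches, on either strand, to the TATA box (TATAAA) and to motifs of the factors named here: GATA proteins (AGATAA), HNF4 (CAAAGT), HNF1 (GTTAAT), CDX proteins (TTTATG), GRHL proteins (AACCGG), SP1 or KLF proteins (GGGCGG) and Snail (CACCTG).
Cldn2, chrX:139800558-139800857, plus strand: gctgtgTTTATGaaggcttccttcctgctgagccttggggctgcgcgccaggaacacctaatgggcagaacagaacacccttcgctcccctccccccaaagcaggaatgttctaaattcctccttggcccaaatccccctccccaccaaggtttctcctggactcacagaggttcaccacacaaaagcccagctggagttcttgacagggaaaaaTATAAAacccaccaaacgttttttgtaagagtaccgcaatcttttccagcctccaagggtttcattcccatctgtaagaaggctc
Cldn15, chr5:136967619-136967918, plus strand: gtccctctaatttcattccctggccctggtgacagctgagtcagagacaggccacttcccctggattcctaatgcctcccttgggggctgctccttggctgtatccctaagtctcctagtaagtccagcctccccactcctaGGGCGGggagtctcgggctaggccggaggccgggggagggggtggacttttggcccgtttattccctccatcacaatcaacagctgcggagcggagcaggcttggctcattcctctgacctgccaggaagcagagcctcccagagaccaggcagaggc
Cldn2 has TATAAA 35 bases before the start, in 13.6% of all 32851 RefSeq promoter windows, and TTTATG 244 bases before it, in 11.9% of them. GGGCGG is absent from the Cldn2 window and present 108 bases before the start of Cldn15. Counting either window where a gene has 2, GGGCGG occurs in 7 of 8 members and in 35.7% of all windows, and CACCTG in 4 of 8 members (Cldn3, Cldn4, Cldn7 and Ocln) and in 20.2% of all windows. AGATAA and CAAAGT occur in 0 of 8 members, and in 11.2% and 14.4% of all windows. These matches describe the letters of the windows.

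Among the claudins that tighten the seal, Cldn8 was highest in colon. It averaged 3.05 ± 0.21 in colon, 0.16 ± 0.40 in ileum and −4.43 in liver, and was not well above background in either fat. Colon lay above ileum by 2.89 (adjusted p = 1.82e-05 in the fit of 20 arrays) and ileum above liver by 4.59 (adjusted p = 1.57e-08). Cldn1 had another order: it averaged −0.49 ± 0.17 in liver, 3.76 above mesenteric fat (13.5-fold, adjusted p = 2.47e-08), and was low everywhere else. It was not well above background on any ileum or brown fat array, and its level on the 3 colon arrays that measured it ran from −5.23 to −4.31. Cldn23 averaged −0.32 ± 0.04 in ileum and −0.50 ± 0.11 in colon, 3.02 above liver (8.10-fold, adjusted p = 1.18e-06). For Cldn23 the steps from liver to brown fat and from brown to mesenteric fat did not pass in the fit of 20 arrays (adjusted p = 0.830 and 0.568). That fit shares 1 estimate of spread, and the SD was 1.16 in mesenteric fat and 0.18 in liver. Brown fat lay above mesenteric fat with normexp background correction (0.52, adjusted p = 0.00458) and without HFD (0.72, adjusted p = 0.0121).

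Cldn3, Cldn4 and Cldn7 are claudins found in many epithelia. Cldn3 averaged 6.39 ± 0.06 in colon, 6.21 ± 0.16 in ileum and 5.06 ± 0.06 in liver, 7.14 above mesenteric fat (adjusted p = 5.20e-11). Cldn7 averaged 7.92 ± 0.12 in ileum and 7.27 ± 0.05 in colon, and colon lay 7.52 above mesenteric fat (183-fold, adjusted p = 8.14e-11). Cldn7 was far lower in liver, at −0.72 ± 0.20. In the fit of 20 arrays its steps to mesenteric fat and to brown fat did not pass (adjusted p = 0.270 and 0.211). Mesenteric fat lay above brown fat by 1.02 (adjusted p = 0.0247). That fit shares 1 estimate of spread, and the SD was 1.34 in mesenteric fat and 0.12 in brown fat. Liver and brown fat did not overlap, and liver lay above by 0.55. This step passed without the mesenteric fat arrays (adjusted p = 0.000193) and with slide as a random block (adjusted p = 0.0300). In that block arrays of 1 slide had an estimated correlation of −0.13, so they counted as less alike than other arrays. The pass with it therefore does not show that the step holds once slide is allowed for. The step from mesenteric fat to liver passed with the values deposited by the authors (adjusted p = 0.00931) and without HFD+Ex (adjusted p = 0.0221). Cldn4 averaged 0.81 ± 0.43 in ileum, −0.38 ± 0.50 in colon and −3.33 in liver, with the fats at −4.10 and −4.16.

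Cldn3 and Cldn4 lie on opposite strands of chromosome 5 with 39280 bases between their starts, and their promoters are shown for this reason.
Cldn4, chr5:134946885-134947184, minus strand: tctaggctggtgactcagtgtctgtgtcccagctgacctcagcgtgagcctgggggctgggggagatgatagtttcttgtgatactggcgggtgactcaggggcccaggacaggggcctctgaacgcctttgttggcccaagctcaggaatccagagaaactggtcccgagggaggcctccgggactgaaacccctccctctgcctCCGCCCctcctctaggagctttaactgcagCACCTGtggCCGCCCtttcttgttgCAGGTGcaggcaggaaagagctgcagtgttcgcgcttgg
Cldn3, chr5:134985964-134986263, plus strand: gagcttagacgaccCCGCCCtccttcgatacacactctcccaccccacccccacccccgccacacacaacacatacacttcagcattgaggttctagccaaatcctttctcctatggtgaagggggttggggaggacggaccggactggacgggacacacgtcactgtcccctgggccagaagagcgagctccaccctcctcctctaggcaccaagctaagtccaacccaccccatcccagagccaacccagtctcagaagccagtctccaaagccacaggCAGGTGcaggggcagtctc
GGGCGG occurs 44 and 5 bases before the start of Cldn4 and 236 bases before that of Cldn3, and CACCTG occurs in both, 14 bases before and 11 bases after the start of Cldn4 and 31 bases after that of Cldn3. Liver held Cldn4 at 2.95 below colon (adjusted p = 4.30e-07) and 4.14 below ileum (adjusted p = 6.74e-09). It held Cldn3 at 1.33 below colon (adjusted p = 0.00415) and 1.15 below ileum (adjusted p = 0.0105). The ileum difference of Cldn3 was lost with slide as a block and the colon arrays left out, where ileum minus liver was −0.0027 (adjusted p = 0.999).

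Ocln and Tjp1, the membrane partner and the scaffold, had different breadths. Ocln averaged 1.82 ± 0.11 in colon, 1.79 ± 0.35 in ileum and −0.07 ± 0.32 in liver, was well above background on 2 of 4 mesenteric fat arrays and on 0 of 4 brown fat arrays. Ileum lay above liver by 1.86 (3.63-fold, adjusted p = 1.45e-06) and liver above mesenteric fat by 4.91 (adjusted p = 1.26e-11). Tjp1 averaged 3.18 ± 0.03 in colon, 2.77 ± 0.10 in ileum, 2.67 in brown fat, 2.53 in mesenteric fat and 2.18 in liver. Colon lay above ileum by 0.42 (adjusted p = 0.0106), and ileum, brown fat and mesenteric fat did not differ beyond their spread (adjusted p = 0.452 and 0.310). The order of the fats turns round with the values deposited by the authors, where brown fat minus mesenteric fat is −0.33 (adjusted p = 0.0166), and ileum lay above brown fat by 0.45 there (adjusted p = 0.00212).

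Over all 10 genes there are 40 pairs of neighbouring tissues in order of level. In 3 of them both tissues were below background and have no order. Of the other 37, 23 passed an adjusted p of 0.05, in a fit of 18103 genes. They include Cldn1 in colon against brown fat and Ocln in mesenteric against brown fat, where brown fat was below background on all 4 arrays. Against the floor of those arrays the higher tissue was at least 0.69-fold and 0.72-fold, so neither order is settled. With normexp background correction both reversed (−0.60, adjusted p = 4.99e-05, and −0.42, adjusted p = 0.0172). The share of all genes that passed was 43.0% for colon against ileum, 66.3% for colon against mesenteric fat, 74.6% for colon against brown fat and 75.5% for colon against liver. It was 66.5% for ileum against mesenteric fat, 76.9% for ileum against brown fat and 76.3% for ileum against liver. Brown fat against mesenteric fat gave 72.1%, brown fat against liver 68.6% and mesenteric fat against liver 77.8%. With slide as a block, which needs the colon arrays left out, 8 of the 12 passing pairs among the 21 that could be fitted passed again. Cldn3 in ileum against liver was lost, at −0.00 (SE 1.14, adjusted p = 0.999), as were Cldn4 and Cldn8 in liver against brown fat and Tjp1 in mesenteric fat against liver (adjusted p = 0.709, 0.0984 and 0.255). Leaving out 1 diet also ended calls: Tjp1 in colon against ileum without HFD+PP (adjusted p = 0.0830) or HFD+Ex (0.0543), Tjp1 in mesenteric fat against liver without HFD, HFD+PP or HFD+Ex (0.0902 to 0.102), Cldn3 in ileum against liver without HFD (0.0635), Cldn1 in mesenteric fat against colon without CD, HFD or HFD+PP (0.0631 to 0.270) and in colon against brown fat without HFD (0.0808), and Cldn4 in liver against brown fat without CD, HFD or HFD+PP (0.0708 to 0.359).

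Colon against ileum was also tested on the 8 gut arrays alone, where the pool of each diet gives a colon and an ileum array and so 4 pairs. Cldn8 was higher in colon by 7.44-fold, Cldn15 lower by 3.67-fold and Cldn4 lower by 2.29-fold. Cldn8 stood at 2.98, 2.85, 3.04 and 3.34 in colon on HFD+Ex, HFD+PP, HFD and CD, against 0.40, −0.07, −0.28 and 0.58 in ileum on the same diets. Every colon array lay above every ileum array, a difference of 2.89 (SE 0.12, adjusted p = 1.07e-05, limma with Benjamini-Hochberg adjustment). Cldn15 stood at 2.85, 3.54, 2.68 and 3.08 in colon on HFD+Ex, HFD+PP, HFD and CD, against 4.96, 4.95, 4.99 and 4.74 in ileum. The groups did not overlap, with a difference of −1.88 (SE 0.15, adjusted p = 0.000156). Cldn4 stood at −0.47, −0.92, 0.29 and −0.42 in colon, against 1.21, 0.46, 1.16 and 0.43 in ileum, in the same diet order. It was lower in colon in 4 of 4 pairs and the groups did not overlap (−1.19, SE 0.15, adjusted p = 0.00099), and its second probe gave −1.34.

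The other members differed less between colon and ileum. Cldn7 differed by −0.65 (adjusted p = 0.000153), Cldn2 by −0.39 (adjusted p = 0.00491), Tjp1 by 0.42 (adjusted p = 0.0013) and Cldn3 by 0.18 (adjusted p = 0.0426), all under 2-fold. For Cldn2, Cldn3 and Cldn7 the adjusted p was 0.388, 0.728 and 0.179 when all 20 arrays shared 1 estimate of spread, and Cldn3 also missed the threshold without CD, HFD+PP or HFD+Ex (adjusted p = 0.103 to 0.143). Cldn23 (−0.18, adjusted p = 0.0895) and Ocln (0.03, adjusted p = 0.864) did not differ beyond the spread of the difference over the 4 pairs. Cldn1 had a fitted difference of 1.94 (SE 0.44, adjusted p = 0.0109), but it was below background on all 4 ileum arrays and entered the fit through colon alone. Measured against the floor of the ileum arrays it was at least 1.07-fold higher in colon, and with normexp background correction the difference was −0.00 (adjusted p = 0.979).

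Of the 9 genes above background in both tissues, which leaves out Cldn1, 7 passed the adjusted p, beside 56.1% of 17083 genes. With 2-fold added, 1 was higher (8.44% of genes) and 2 lower in colon (7.63% of genes). The 4 colon and 4 ileum arrays did not overlap for 6 of the 9, beside 51.0% of genes. The median difference of all 10 genes was −0.08, and that of all genes 0.07. The colon and ileum arrays lie on different slides, so no value within 1 slide can be given.

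**Figure D2:**
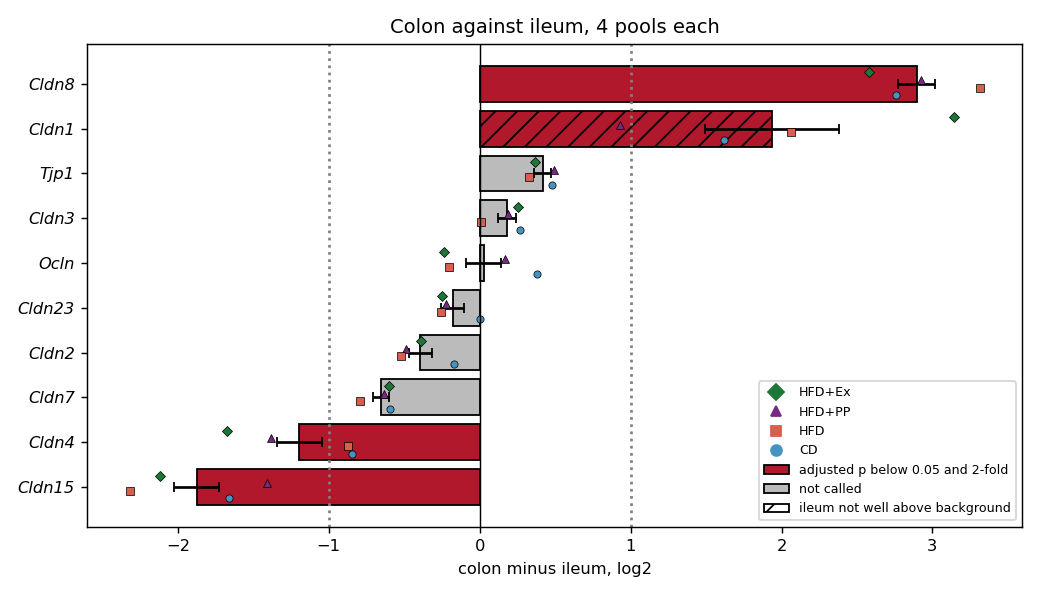
Colon minus ileum for each gene (x axis, log2): the bar is the limma estimate with its SE, and points are the 4 pools by diet. Dotted lines mark 2-fold. Cldn8 at 2.89 and Cldn15 at −1.88 are the farthest apart of the genes measured in both tissues, and the hatched bar of Cldn1 rests on ileum arrays below background.

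Other junction genes were read from lists of the same pathway. Of the other claudins, 12 of 16 entered the gut fit, 8 passed the adjusted p, 4 were called higher and 1 lower in colon. Cldn14, a sealing claudin known from the inner ear and kidney, stood at −0.50 ± 0.22 in colon and −3.96 ± 0.18 in ileum, a difference of 3.46 (adjusted p = 8.34e-06). Cldn22 differed by 1.16. The other calls rest on few measured arrays: Cldn17 (1.33) was well above background on 1 ileum array, Cldn20 (−1.25) on 1 colon array, and Cldn19 (1.49) on 2 colon arrays and 0 ileum arrays. Of 12 further membrane proteins 1 was higher: Ildr1, which lines the corners where 3 cells meet, differed by 3.52 (adjusted p = 2.45e-06). Of 18 scaffold genes, Cgnl1 (1.92, well above background on 1 ileum array) and Prkci (1.11) were higher and Pard6b (−1.34) was lower. Of 13 adherens junction and desmosome genes 1 was lower, Nectin1 (−1.04). Of 17 regulators measured, Prss8 (1.23), Klf4 (1.12) and Grhl2 (1.06) were higher in colon, while Cdx2 (−2.95), Gata4 (−1.67) and Ifng (−1.53, well above background on 1 colon array) were lower. Grhl2 and Klf4 are epithelial transcription factors, and Prss8 is a membrane protease. Beside these, 6 of 15 intestinal epithelium markers were lower and 0 higher in colon, and the part of this shift in the values of Cldn15 and Cldn4 was not tested.

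In the gut, the diets left most of these genes near their level. Of the 80 differences of 10 genes in 4 comparisons in colon and ileum, 76 were measured, 15 exceeded 0.5 log2 and 2 reached 1 log2. Replicate spots within an array give a technical SD of 0.092 log2 for a difference, which leaves out all variation between mice. HFD+Ex against HFD and HFD+PP against HFD share the HFD array with HFD against CD, so their values are given side by side. In ileum 0 of 9 measured members reached 1 log2 in any comparison, while 3.82% of genes did so in HFD against CD. The share was 2.85% for HFD+PP against HFD. For HFD+Ex it was 1.80% against HFD, and 3.32% against HFD+PP. In colon 0 of 10 did in HFD against CD (2.13% of genes) and in HFD+Ex against HFD (1.54%).

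The largest colon difference of a member measured on both arrays was that of Cldn4 on HFD+PP against HFD. Its colon level was −0.47 on HFD+Ex, −0.92 on HFD+PP, 0.29 on HFD and −0.42 on CD, so the HFD array was the highest. HFD against CD differed by 0.71, HFD+PP against HFD by −1.21 and HFD+Ex against HFD by −0.76. The fall on HFD+PP was 2.32-fold and the 1 member called lower of 10 measured, beside 1.05% of genes, and the second Cldn4 probe gave −1.16. In ileum Cldn4 stood at 1.21 on HFD+Ex, 0.46 on HFD+PP, 1.16 on HFD and 0.43 on CD. There HFD and HFD+Ex were the high arrays: HFD against CD differed by 0.74, HFD+PP against HFD by −0.70 and HFD+Ex against HFD by 0.04.

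Ocln in ileum was also highest on HFD and HFD+Ex, at 2.02 on HFD+Ex, 1.53 on HFD+PP, 2.16 on HFD and 1.47 on CD. Its differences were 0.69 for HFD against CD, −0.63 for HFD+PP against HFD and −0.14 for HFD+Ex against HFD, and its second probe gave 0.37, −0.38 and −0.06. None reached 1 log2. Beside these, the median of the intestinal epithelium markers in ileum was 7.75 on HFD+Ex, 7.60 on HFD+PP, 7.87 on HFD and 7.49 on CD, and that of the smooth muscle markers was 7.18, 7.17, 6.53 and 7.09. Their part in the values of Cldn4 and Ocln was not tested. In colon, Ocln ran only from 1.69 to 1.96.

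Cldn8 in ileum was lowest on HFD, at 0.40 on HFD+Ex, −0.07 on HFD+PP, −0.28 on HFD and 0.58 on CD. HFD against CD differed by −0.85, and 5.56% of all measured genes moved as far or farther. HFD+Ex against HFD differed by 0.67. In colon Cldn8 ran from 2.85 to 3.34 with CD highest. Cldn7, Cldn2, Cldn3, Cldn23 and Tjp1 moved by no more than 0.36 in any diet comparison in colon or ileum.

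Cldn15 in colon was highest on HFD+PP, at 3.54, with 2.85 on HFD+Ex, 2.68 on HFD and 3.08 on CD. HFD+PP against HFD differed by 0.86 and HFD+Ex against HFD+PP by −0.69. On the same HFD+PP colon array 3 of 14 measured intestinal epithelium markers were called higher than on HFD, beside 310 of 16976 genes. These markers were Fabp2 (2.38), Alpi (2.37) and Cdx2 (2.22). The median difference of that list was 0.17 and Apoa4 was below background on both arrays. The part of this in the value of Cldn15 was not tested. Cldn1 in colon rose by at least 2.62-fold on HFD+Ex against HFD+PP, where it was below background. On HFD+Ex against HFD, both measured, it differed by 0.92. On HFD+Ex against HFD+PP it was the 1 member called higher of 10, beside 1.69% of genes, and the call is lost with normexp background correction, at 0.32.

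**Figure D3:**
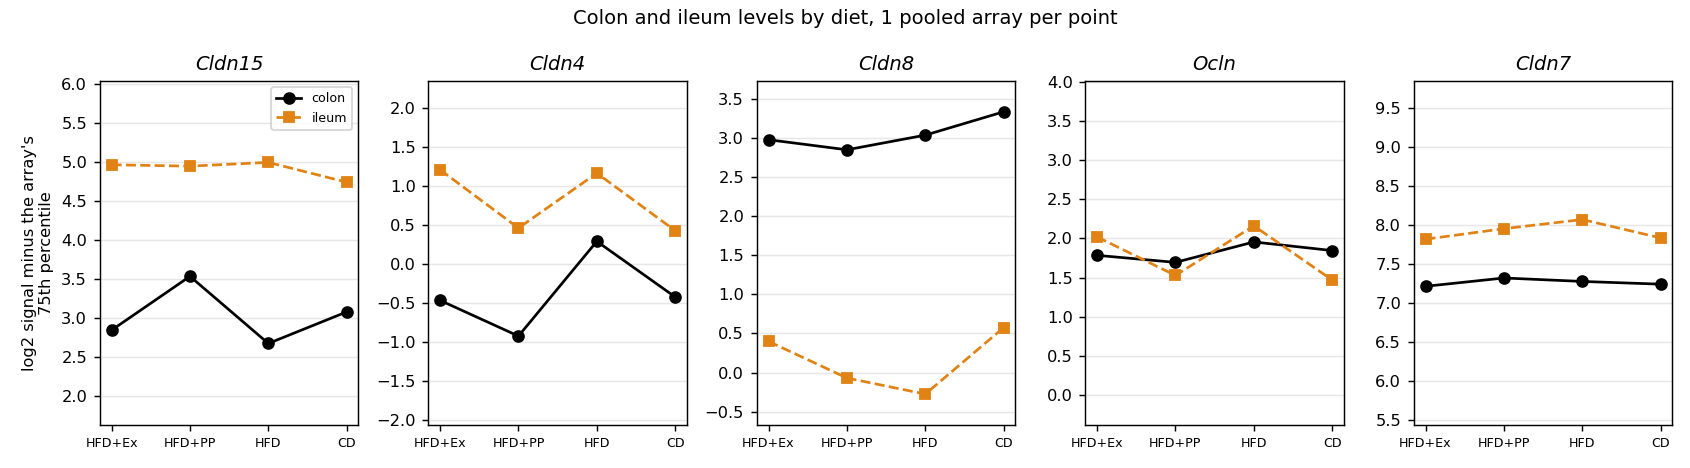
Level of 5 genes in colon (black circles) and ileum (orange squares) by diet, 1 pooled array per point, with the y axis in log2 signal minus the 75th percentile of the array. Cldn15 and Cldn4 lie lower and Cldn8 higher in colon on every diet, and Cldn4 and Ocln in ileum are highest on HFD and HFD+Ex.

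In liver 0 of 10 members were called in any diet comparison, beside 4.82% of genes in HFD against CD, 2.11% in HFD+PP against HFD, 2.96% in HFD+Ex against HFD and 1.82% in HFD+Ex against HFD+PP. Ocln stood at −0.05 on HFD+Ex, −0.03 on HFD+PP, −0.48 on HFD and 0.29 on CD, and differed by −0.77 for HFD against CD. Cldn15 in liver differed by 0.70 in that comparison, at −3.40 on HFD and −4.09 on CD. Cldn1, Cldn2 and Cldn3 differed by no more than 0.22 in any liver comparison. In brown fat 5 or 6 members were measured in each comparison and 1 was called: Cldn23 rose on HFD+Ex against HFD+PP, where it was below background, by at least 2.06-fold (1.06% of genes were called higher). In the others 0 were called, beside 8.49% of genes in HFD against CD, 3.46% in HFD+PP against HFD and 4.10% in HFD+Ex against HFD. That call is lost with normexp, with quantile normalization and with the values deposited by the authors. The brown fat HFD+Ex array lies on another slide than the other brown fat arrays.

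**Figure D4:**
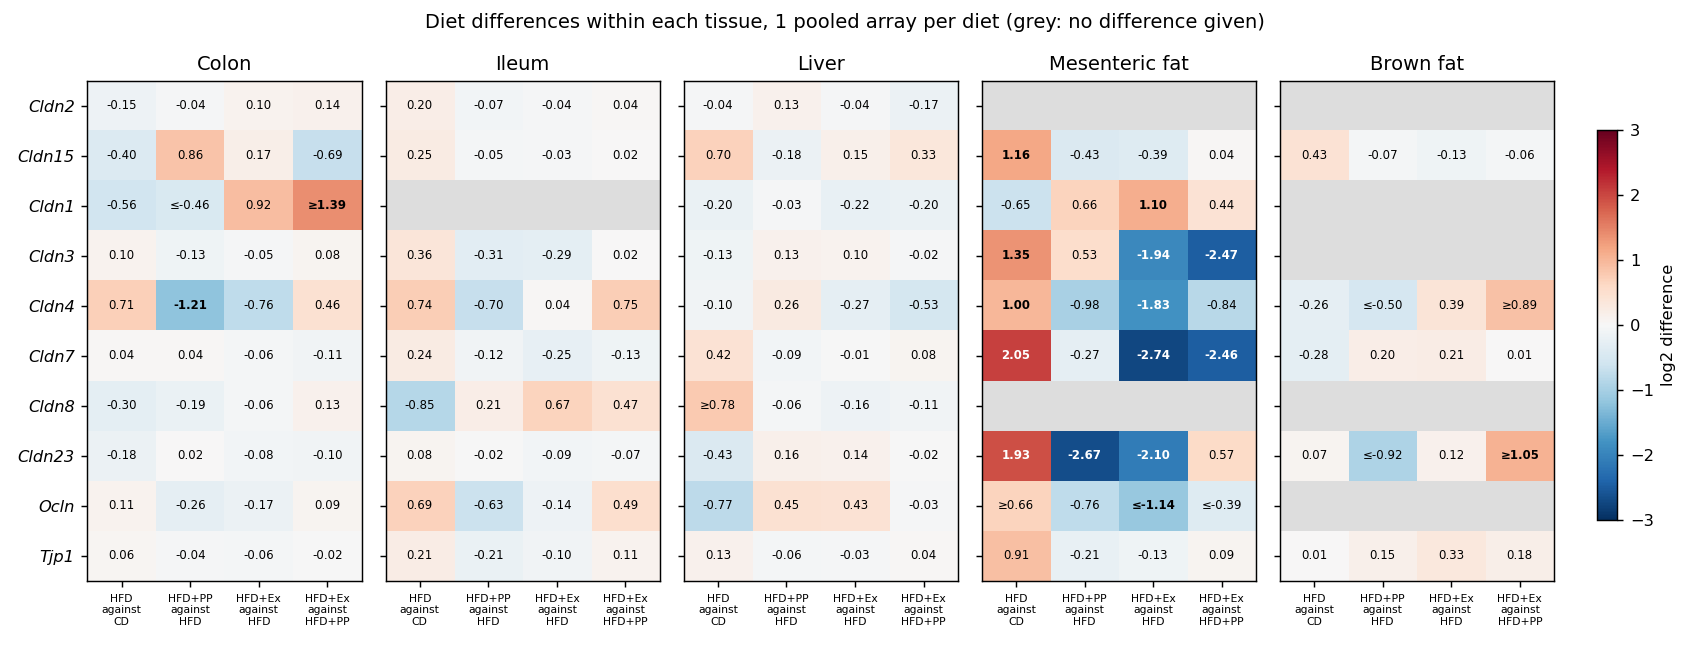
Log2 difference of each gene (rows) in 4 diet comparisons (columns) in each tissue, coloured from −3 to 3; bold values reach 1 log2, and values with an inequality sign are bounds against the floor of the dimmer array. Bold values gather in mesenteric fat, where Cldn7 differed by 2.05 for HFD against CD and by −2.74 for HFD+Ex against HFD.

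Most of the calls between diets came from mesenteric fat. On HFD against CD, 5 of 8 measured members rose, beside 9.49% of genes called higher, and 0 fell. Cldn7 stood at −1.73 on HFD+Ex, 0.74 on HFD+PP, 1.01 on HFD and −1.04 on CD. Cldn3 stood at −3.33, −0.86, −1.39 and −2.75 on the same diets. For both genes HFD and HFD+PP were the high arrays and HFD+Ex the lowest. Cldn7 rose 4.13-fold and Cldn3 2.56-fold on HFD against CD, Cldn23 3.82-fold, Cldn15 2.24-fold and Cldn4 2.01-fold. With normexp 2 members reached the call, Cldn7 (1.84) and Cldn15, and Cldn3, Cldn4 and Cldn23 gave 0.87, 0.38 and 0.83. Tjp1 differed by 0.91 and the median of all genes by 0.14.

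On HFD+Ex against HFD, 5 of 8 members fell (3.91% of genes were called lower) and 1 rose (3.55% called higher). Cldn7 fell 6.66-fold, Cldn23 4.29-fold, Cldn3 3.83-fold and Cldn4 3.55-fold, and Ocln fell at least 2.21-fold to below background. The second Ocln probe was not well above background on either array, so the fall of Ocln rests on 1 probe. Cldn1 rose 2.14-fold, at −3.75 on HFD+Ex against −4.85 on HFD. With normexp only the falls of Cldn7 (−2.30) and Cldn3 (−1.32) reached 1 log2. On HFD+PP against HFD, 1 of 8 members fell (4.18% of genes): Cldn23, at −4.84 on HFD+PP against −2.17 on HFD, a 6.36-fold fall, while Cldn3 and Cldn7 differed by 0.53 and −0.27. On HFD+Ex against HFD+PP, Cldn3 and Cldn7 fell by 2.47 and 2.46 (2 of 8 members, beside 2.45% of genes). The HFD+Ex and HFD+PP arrays of mesenteric fat share a slide, and the HFD and CD arrays share another, so HFD+Ex against HFD and HFD+PP against HFD also cross slides.

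Intestinal epithelium markers moved beside Cldn3 and Cldn7 in mesenteric fat. All 15 were well above background on the HFD+PP and HFD arrays and 13 on the HFD+Ex and CD arrays, where Muc2 and Cdx2 were below it. Their summed level, with the 75th percentile as 1, was 13.8 on HFD+Ex, 46.9 on HFD+PP, 59.2 on HFD and 12.2 on CD. On HFD against CD 13 of 15 rose (median 2.70), on HFD+PP against HFD 0 rose and 3 fell (median −0.21), and on HFD+Ex against HFD 13 of 15 fell (median −3.13). Exocrine pancreas and lymphocyte markers went the other way: 6 of 6 in each list fell on HFD against CD and 6 of 6 in each rose on HFD+Ex against HFD. Cldn4 and Cldn23 also rose on HFD against CD and fell on HFD+Ex against HFD. On HFD+PP against HFD they differed by −0.98 and −2.67. Cldn15 differed by −0.39 on HFD+Ex against HFD. The part of epithelium, pancreas and lymphocyte RNA in the claudin values was not tested. Within the 2 arrays of 1 slide, HFD+Ex and HFD+PP, 13 of 15 epithelium markers fell as Cldn3 and Cldn7 did.

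**Figure D5:**
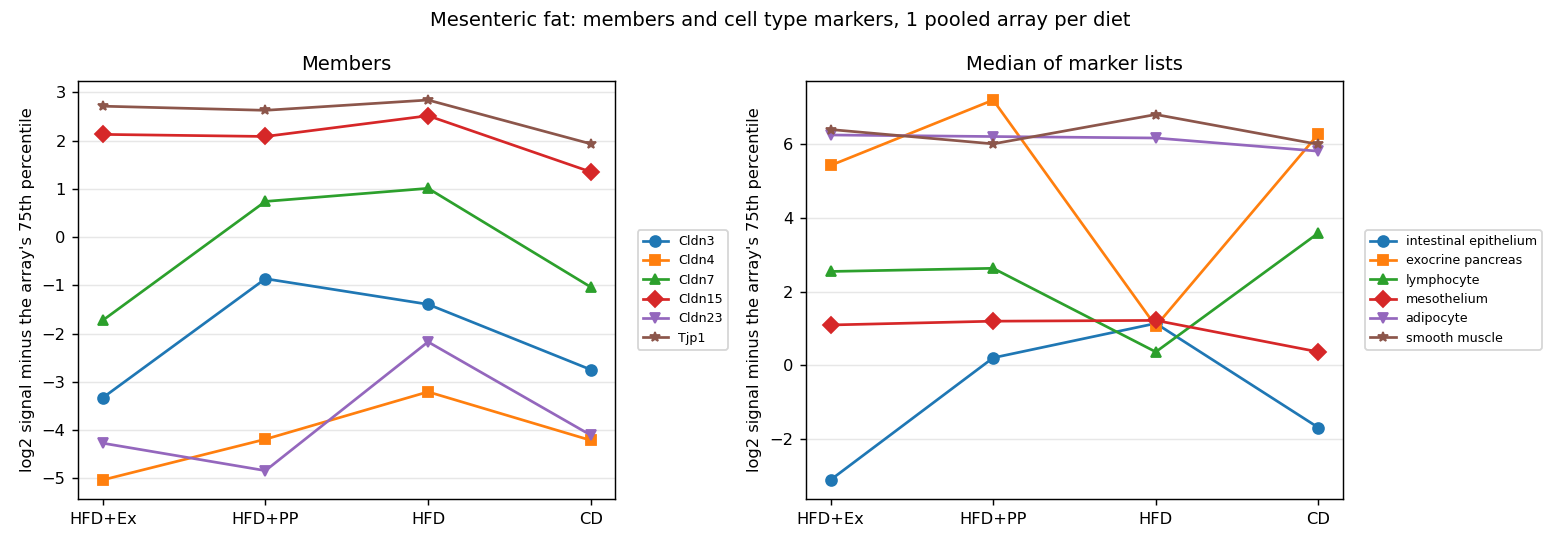
Mesenteric fat by diet, 1 pooled array per point, with the y axis in log2 signal minus the 75th percentile of the array. Left, 6 of the genes; right, the median level of marker lists. Cldn3, Cldn7 and the median of the intestinal epithelium markers are lowest on HFD+Ex, and the medians of the exocrine pancreas and lymphocyte markers are lowest on HFD.

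Other junction genes in mesenteric fat were mixed on HFD against CD, where 8.17% of all genes were called lower. Among the scaffold genes, Mpdz rose by 1.57 and Cgnl1 by 1.13, and Tjp3 fell (−1.16). Of 13 adherens junction and desmosome genes 3 rose, namely Dsp (1.72), Nectin3 (1.54) and Pkp2 (1.49), and 2 fell. Of 8 other claudins 0 rose and 3 fell, Cldn11 by 1.97, Cldn22 by 1.55 and Cldn13 by at least 1.06. On HFD+Ex against HFD the cadherin Cdh1 fell 3.21-fold and the desmosome protein Dsp 4.27-fold, and the regulators Hnf4a and Cdx1 fell by 3.64 and 3.51. In ileum and colon 0 of 13 adherens junction and desmosome genes, 0 of 12 membrane proteins and 0 of 16 to 18 scaffold genes were called in any diet comparison. Among regulators in ileum, Il22, a cytokine that acts on gut epithelium, fell 4.95-fold on HFD against CD and rose 2.07-fold on HFD+PP against HFD.

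The genes whose level was most like that of each member over the 20 arrays were searched among 17311 genes. These correlations rest mainly on the tissue differences, and the 4 arrays of a tissue are not independent points. Cldn7 was most like Slc44a4 (r = 0.998), Cldn3 most like the desmosome gene Dsp (r = 0.994), and Ocln most like Sh3yl1 (r = 0.994), with Dsp close (r = 0.993). Cldn15 was most like Gpr160 (r = 0.994) and the carbonic anhydrase Car12 (r = 0.993), and Cldn2 most like the sulfotransferase Sult1d1 (r = 0.992). Cldn8 was most like Gm16863 (r = 0.982) and the epithelial splicing factor Esrp1 (r = 0.981), and Cldn4 most like Hes2 (r = 0.978). Cldn1 was most like Sdc2 (r = 0.971) and Cldn23 most like Rac1 (r = 0.970). Tjp1, with the narrowest range, had the lowest best match, Plce1 (r = 0.947).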

How the data were processed

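RNA of 5 tissues and 4 diets was measured on 20 one-colour arrays. Per the file headers, Agilent Feature Extraction 11.5.1.1 made the deposited intensity values, background-subtracted and detrended within each array on a linear scale, with 1 row per spot. The value table deposited by the authors holds the same intensity times 1 factor per array; its scale is linear, its values are not centred, and what set the factor is not given in the sources used here. From these, log2 intensity minus the 75th percentile of each array was computed, spots of a probe were averaged, and control spots and outlier flags were left out. Accessions were matched to RefSeq (GRCm38.p6) for 28026 of 55681 probes, which gave 21154 genes; the brightest probe stands for a gene. The files give no build for the promoter windows, which carry that of RefSeq.

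Tissue contrasts used limma 3.58.1 in R 4.3.3 with diet as a block, over genes well above background on at least 2 arrays. Only the fit of colon against ileum was checked on simulated data, made with equal spread in both tissues. The fit of all arrays, where spread differs between tissues, was not checked in this way. The pools of a diet hold the same mice, which is the pairing. With diet as a block, these p-values rest on how far a tissue difference varies over the 4 diets, and not on the spread between mice. In the fit of all arrays that spread is 1 estimate per gene, shared by all tissues. Diet contrasts have 1 array a group and no test: a gene is measured when well above background on at least 1 array, and called at 1 log2, with a bound against the floor of an array on which it is below background. On that array the floor is its dimmest signal that still counts as well above background, or the value of the probe where that is larger. Folds are of normalized intensity. The members and lists were chosen with earlier results of these data known. All 10 members are named whatever their values; of each list up to 4 called genes per comparison with the largest difference, and for each member the most alike genes. Alternatives were normexp (on the median signal, since the files hold no mean signal column), 3 other scalings or value sets, the mean of all probes, other filters, no diet term, and leaving out each diet; those on slide and without mesenteric fat were added after seeing the data.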

Additional observations from a re-analysis of the deposited data

How the results depend on the processing

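Members past the threshold in colon against ileum numbered 4, Cldn1 included, and 3 or 4 under every alternative run, with 4 without each diet in turn; without the replicate block (no diet term) it was 4 too. Over all genes 2744 passed, 1693 with normexp, and 2555 to 2793 without each diet. Of the 37 neighbouring tissue pairs 23 passed, 19 to 22 without each diet, 21 without the replicate block, 16 of the pairs left without the mesenteric fat arrays, 25 with slide as a random block, and 8 with slide as a block without the colon arrays. The random block had a correlation of −0.13 between arrays of 1 slide, so its count does not show that the pairs hold against slide. Directions reversed with normexp for Cldn1 in colon minus ileum (−0.0037) and colon minus brown fat (−0.60) and for Ocln in mesenteric minus brown fat (−0.42), all at or near background, with the deposited values for Tjp1 in brown minus mesenteric fat (−0.33), and with slide as a block for Cldn3 in ileum minus liver (−0.0027). The same block also turned 4 differences that passed in neither setting, Cldn2 in liver minus ileum (−0.62), Cldn23 in liver minus brown fat (−1.004) and Tjp1 in ileum minus brown fat (−0.07) and brown minus mesenteric fat (−0.04), and slide as a random block turned Cldn4 in brown minus mesenteric fat (−0.0060). Ileum above brown fat passed for Tjp1 with scaling to bright probes (0.48), quantile normalization (0.34) and the deposited values (0.45), and mesenteric above brown fat for Cldn15 with the first (0.57) and the last (0.68) of these. Brown above mesenteric fat passed with normexp for Cldn4 (0.55) and Cldn23 (0.52), and without HFD for Cldn23 (0.72). The cause was not tested.

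Members called in a diet comparison moved as follows. With normexp there were 2 for mesenteric fat HFD against CD (5 in the main setting), 2 for HFD+Ex against HFD there (6 in the main setting), 0 for brown fat HFD+Ex against HFD+PP and 0 for colon HFD+Ex against HFD+PP (1 in the main setting in each). With quantile normalization there were 1 for liver HFD against CD, 2 for mesenteric fat HFD+PP against HFD and 0 for brown fat HFD+Ex against HFD+PP. The deposited values gave 0 for the last. The mean of all probes gave 1 for liver HFD+PP against HFD and 1 for brown fat HFD+Ex against HFD. Requiring both arrays above background gave 0 for brown fat and 0 for colon HFD+Ex against HFD+PP. Without a filter, which lets in dim probes, there was 1 for liver and 1 for ileum HFD against CD, 2 for brown fat HFD against CD, 1 for brown fat HFD+Ex against HFD and 3 for HFD+Ex against HFD+PP, and 2 for mesenteric fat HFD+PP against HFD and 4 for HFD+Ex against HFD+PP. The deposited values moved the median of all genes by up to 0.25, in brown fat HFD against CD, where 83.3% of calls were higher (65.7% in the main setting). In ileum HFD against CD this share was 30.4% with the deposited values, 56.5% with quantile normalization, 62.7% with normexp, 52.6% for genes above background on both arrays and 27.9% without a filter (42.3% in the main setting), and in mesenteric fat HFD against CD 43.0% with scaling to bright probes (53.7% in the main setting). Colon and ileum arrays share no slide, so the comparison within 1 slide could not be run. Dim members (Cldn1 outside liver, Cldn8 in liver, Ocln in fat) are limited by signal over background.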
